A study of Mus musculus with 13 samples.

Results

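Broad H3K4me3 domains of 4T1 cells were described, together with what became of them after Nup210 knockout. 4T1 is a mouse mammary tumor line from the strain BALB/cJ. A broad domain was defined as a distinct H3K4me3 peak at least 6000 bp wide in sg-Ctrl cells, and 1248 of the 11018 peaks at transcription start sites (TSS) met this width (11.3%). These domains were paired with 1818 of the 12453 genes that had a peak. sg-Ctrl cells carried a non-targeting guide RNA. KO cells (KO-N13) carried a guide against exon 5 of Nup210, which encodes a nuclear pore protein of the nuclear envelope, and are 1 clone grown from a single sorted cell. Both groups received the guide by lentivirus with puromycin selection and Cas9 from a transient adenovirus. H3K4me3 and H3K27me3 were profiled in sg-Ctrl and KO cells, and NUP210 and several nuclear pore proteins bound by 1 antibody (NPC) in sg-Ctrl cells alone.

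H3K4me3, trimethylation of lysine 4 on histone H3, marks the start sites of active and poised genes. At most promoters it is held to a short stretch around the start site, whereas at some genes it spreads far into the gene body, and such broad domains are known from many tissues to lie at regulators of cell identity and at highly transcribed genes. H3K27me3 is the mark of Polycomb repression and usually lies apart from broad H3K4me3.

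Every condition had 1 library, so no replicate error exists and KO could not be tested against sg-Ctrl. Values are descriptions of these libraries. The 95% intervals for shares (Wilson) and for medians (order statistics) treat peaks or genes as independent draws and describe spread over them. Exact Poisson 95% intervals for reads cover counting error. None of these intervals covers variation between libraries. The H3K4me3 lists held 26236314 reads in peaks in sg-Ctrl and 24873356 in KO. Library size relative to the IgG library was 1.06 and 1.35, and reads were divided by it and by peak length to give scaled reads per kb. The lists hold a peak where it touches the 4 kb on either side of a listed TSS, so KO pieces beyond that reach are not analysed here. Of 13 mammary epithelial markers, 12 had a promoter peak in sg-Ctrl, including Krt8, Cdh1 and Epcam, while 0 of 20 markers of blood, endothelial, muscle, neural and liver cells did (1 in KO).

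Promoter sequence is shown for 6 genes whose domains are followed below, chosen from the widest domains and from the widest domains of the gene lists. Other genes considered, among them Nfib, Cdh1 and Csf3, had no matching promoter and are not shown. Sequences are from RefSeq (GRCm38.p6), cover the 250 bases before the start, read 5′ to 3′ on the gene's strand, and capitals mark CG dinucleotides. They come from chr2:9878601-9878850 (minus strand) for Gata3, chr13:40733796-40734045 (minus) for Tfap2a, chr1:62703067-62703316 (plus) for Nrp2, chr6:94700146-94700395 (minus) for Lrig1, chr6:134920151-134920400 (plus) for Cdkn1b and chr8:84978749-84978998 (minus) for Junb.
Gata3: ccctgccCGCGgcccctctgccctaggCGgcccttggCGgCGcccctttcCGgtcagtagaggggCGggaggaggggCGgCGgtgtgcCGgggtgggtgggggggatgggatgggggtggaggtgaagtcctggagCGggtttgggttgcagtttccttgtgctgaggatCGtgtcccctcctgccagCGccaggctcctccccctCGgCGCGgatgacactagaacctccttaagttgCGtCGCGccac
Tfap2a: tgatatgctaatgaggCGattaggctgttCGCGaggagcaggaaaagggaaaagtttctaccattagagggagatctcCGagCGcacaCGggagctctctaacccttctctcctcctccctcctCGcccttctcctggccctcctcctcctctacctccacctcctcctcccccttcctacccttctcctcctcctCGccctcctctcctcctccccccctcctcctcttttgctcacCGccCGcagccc
Nrp2: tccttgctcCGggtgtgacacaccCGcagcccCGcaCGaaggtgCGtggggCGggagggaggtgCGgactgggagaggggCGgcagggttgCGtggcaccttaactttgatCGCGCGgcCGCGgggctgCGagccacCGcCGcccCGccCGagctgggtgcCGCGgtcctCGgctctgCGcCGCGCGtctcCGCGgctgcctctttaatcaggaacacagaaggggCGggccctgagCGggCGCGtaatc
Lrig1: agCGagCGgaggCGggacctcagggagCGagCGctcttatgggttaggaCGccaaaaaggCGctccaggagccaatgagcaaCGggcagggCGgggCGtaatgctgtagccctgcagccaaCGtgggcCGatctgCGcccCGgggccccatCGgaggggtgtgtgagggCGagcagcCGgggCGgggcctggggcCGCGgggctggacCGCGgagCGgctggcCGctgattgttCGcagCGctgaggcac
Cdkn1b: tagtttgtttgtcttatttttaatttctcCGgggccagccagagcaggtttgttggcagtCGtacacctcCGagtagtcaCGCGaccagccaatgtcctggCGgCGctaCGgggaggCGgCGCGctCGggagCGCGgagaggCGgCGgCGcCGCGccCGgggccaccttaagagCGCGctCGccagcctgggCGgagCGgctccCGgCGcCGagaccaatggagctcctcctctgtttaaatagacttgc
Junb: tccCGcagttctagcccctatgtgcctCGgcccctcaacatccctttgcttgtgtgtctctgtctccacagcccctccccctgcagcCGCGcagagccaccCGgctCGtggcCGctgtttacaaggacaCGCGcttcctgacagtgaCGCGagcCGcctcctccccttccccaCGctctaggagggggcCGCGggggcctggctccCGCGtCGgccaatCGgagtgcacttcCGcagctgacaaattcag
These 250 bases held 19 CG in Gata3, 10 in Tfap2a, 32 in Nrp2, 26 in Lrig1, 28 in Cdkn1b and 20 in Junb, against a median of 6 over the 32851 promoters of the table. Those promoters are not limited to genes with an H3K4me3 peak. The GC box GGGCGG, searched on both strands, occurred 4 times in Nrp2, 2 times each in Gata3 and Lrig1 and 1 time each in Tfap2a and Cdkn1b, and 32.7% of all promoters hold it. The CCAAT box (letters CCAAT, both strands) occurred 2 times in Cdkn1b and 1 time each in Junb and Lrig1, against 33.8% of all promoters. The AP-1 site TGACTCA, found in 4.46% of all promoters, and the TATA box letters TATAAA, found in 12.4%, occurred in none of these 6. Of the 1731 genes with their TSS inside a broad domain, 75.5% had a promoter in the table within 500 bp of that TSS. This lies under the 80% needed, so a comparison of CpG content with narrower peaks is void.

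In sg-Ctrl, broad domains were a small share of the peaks and a large share of the signal. They were 6000 to 31600 bp wide with a median of 7200 bp, against 3200 bp for narrower peaks, and these widths chose them. The domains held 28.1% of all reads in H3K4me3 peaks (7383276 reads) and 24.4% of the covered length (9.99 of 41.0 Mb). Their median was 632 scaled reads per kb (609 to 654), against 477 (469 to 486) in narrower peaks. The difference came from the narrow end of the range: the median was 126 under 2000 bp and 490 from 2000 bp, and then 636 in the class from 4000 bp, 636 from 6000 bp, 635 from 8000 bp and 601 from 10000 bp. Signal per kb therefore did not increase further with width above 4000 bp. Just inside the threshold lay Arfgef1, Map4k4 and Sf3b1 at 6000 bp (585, 548 and 732 scaled reads per kb), and just outside it Rb1cc1, Mybl1 and Snhg6 at 5800 bp (1007, 364 and 908). The fold over IgG had a median of 48.7 in broad domains and 50.3 in narrower peaks. A single domain had a fold under 2, at Eif4enif1 and Sfi1 (6104 ChIP reads on 4950 IgG reads, fold 1.16).

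**Figure D1:**
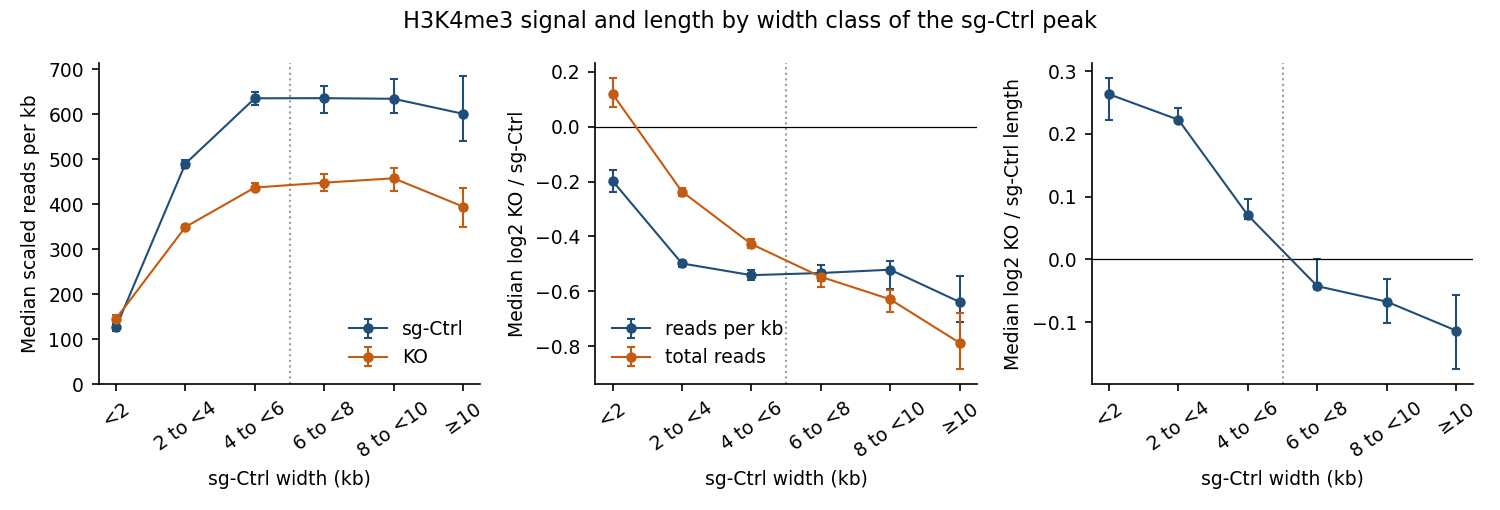
Median scaled H3K4me3 reads per kb (left), log2 KO to sg-Ctrl ratio of reads per kb and of total reads (middle) and log2 ratio of covered length (right) by the width of the sg-Ctrl peak in kb. The 95% order-statistic intervals are over peaks and do not cover variation between libraries, and a dotted line marks 6 kb. Reads per kb level off from 4 kb, and the total-read ratio goes from 0.12 in the narrowest class to -0.79 in the widest, an order that the choice by sg-Ctrl width fixes in part.

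Of the 10 widest domains, 9 are described here, and they included Hox genes and several regulators of mammary epithelium. The domain at Hoxa3 to Hoxa7, which encode homeobox factors of body patterning, spanned 26000 bp. Trps1, a GATA-type repressor of luminal breast cells, had 27200 bp (chr15:50867401-50894600) and 61829 reads. Gata3, the master regulator of luminal identity, had 24200 bp (chr2:9867001-9891200) with 25256 reads. Nfib, a nuclear factor I gene, had 21600 bp, of which 12891 bp lay upstream of the TSS and 8708 bp downstream. The remaining ones were at Tmprss11e (25000 bp), Hnrnpu and Cox20 (23600 bp), Lrig1, an inhibitor of ERBB receptors (23000 bp), Nrp2, a semaphorin and VEGF coreceptor (21200 bp), and Pmepa1, a TGF-beta target (21000 bp). The most reads per kb were at Pisd-ps3 on an unplaced contig (5469, beside 4293 IgG reads), followed by Mrpl13 and Mtbp (2650), Gm6634 (2584), Jmjd1c (2412) and Mir125b-1 (2356).

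Broad domains extended mainly into the gene. Among 710 domains with a single gene and a single TSS inside, the median extent was 2181 bp upstream (2065 to 2282) and 4966 bp downstream (4827 to 5096). In 87.2% of them (84.5% to 89.4%) the downstream side was the longer, and a median of 70.7% of the domain lay downstream (69.3% to 71.8%). Narrower peaks had 1058 bp upstream and 1982 bp downstream, with 64.5% downstream. Lrig1 (3254 bp upstream, 19745 bp downstream), Nrp2 (1916 and 19283 bp) and Pmepa1 (1666 and 19333 bp) show this shape, and Nfib is an exception. Over all domains and all their gene pairs, those with several start sites included, a median of 60.5% lay downstream (58.8% to 61.8%). The genes themselves were longer, with a median length of 37498 bp (32660 to 41363) against 23926 bp (22998 to 24660). The domain ran past the gene end in 8.59% of cases, against 2.08% for narrower peaks.

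More than 1 gene was paired with 447 domains (35.8%; 33.2% to 38.5%), against 17.2% of narrower peaks and 19.3% of all peaks. A wider peak touches more TSS windows, so the choice by width fixes part of this difference. A domain had 1 gene in 801 cases, 2 in 369 and 3 or more in 78, with up to 9 on a single domain, where small nucleolar RNA genes were counted too. Of 367 domains with 2 genes and their TSS inside, 291 had 1 gene on each strand and 278 of these were head to head. The same counts for narrower peaks are not given here, so this order is not read as particular to broad domains.

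Gene lists were set beside the 14.6% of all genes with a peak that had a broad domain. AP-1 and immediate early factors, which answer growth signals within minutes, had broad domains at 17 of 35 genes with a peak (48.6%; 33.0% to 64.4%). Among them were Junb, an AP-1 subunit (18000 bp), Klf6, a zinc finger factor (13400 bp), Zfp36, an mRNA decay factor (12600 bp), Dusp4, a MAP kinase phosphatase (12000 bp), and Myc, a growth regulator (10200 bp). Hippo and serum response factor targets, which respond to cell stretch and actin, had 14 of 29 (48.3%; 31.4% to 65.6%), with the tropomyosin gene Tpm1 at 14000 bp, the receptor kinase gene Axl at 10400 bp and the myosin gene Myh9 at 9200 bp. Integrin and focal adhesion genes had 11 of 31 (35.5%), led by Lasp1, an actin-binding adhesion protein, at 15400 bp. Tumor suppressors had 12 of 36 (33.3%), led by Cdkn1b, an inhibitor of cyclin-dependent kinases, at 19200 bp. Ribosomal protein genes had 13 of 40 (32.5%), H3K4 methylation and Polycomb genes 8 of 26 (30.8%) and mammary epithelial identity genes 9 of 34 (26.5%; 14.6% to 43.1%). Lower shares were found for mesenchymal regulators (3 of 13; 23.1%), Hox, Pax and similar factors (4 of 20; 20%), NF-kB and cytokine genes (6 of 30; 20%) and the genes of the study's RNA checks (1 of 10, Ptk2). The intervals of these last 4 lists include the 14.6% of all genes, and that of the mammary list begins at it. The 4 Hox and similar genes lay on 3 domains. The single gene of the other-cell-type list with a peak, Runx1, was broad as well (8800 bp).

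**Figure D2:**
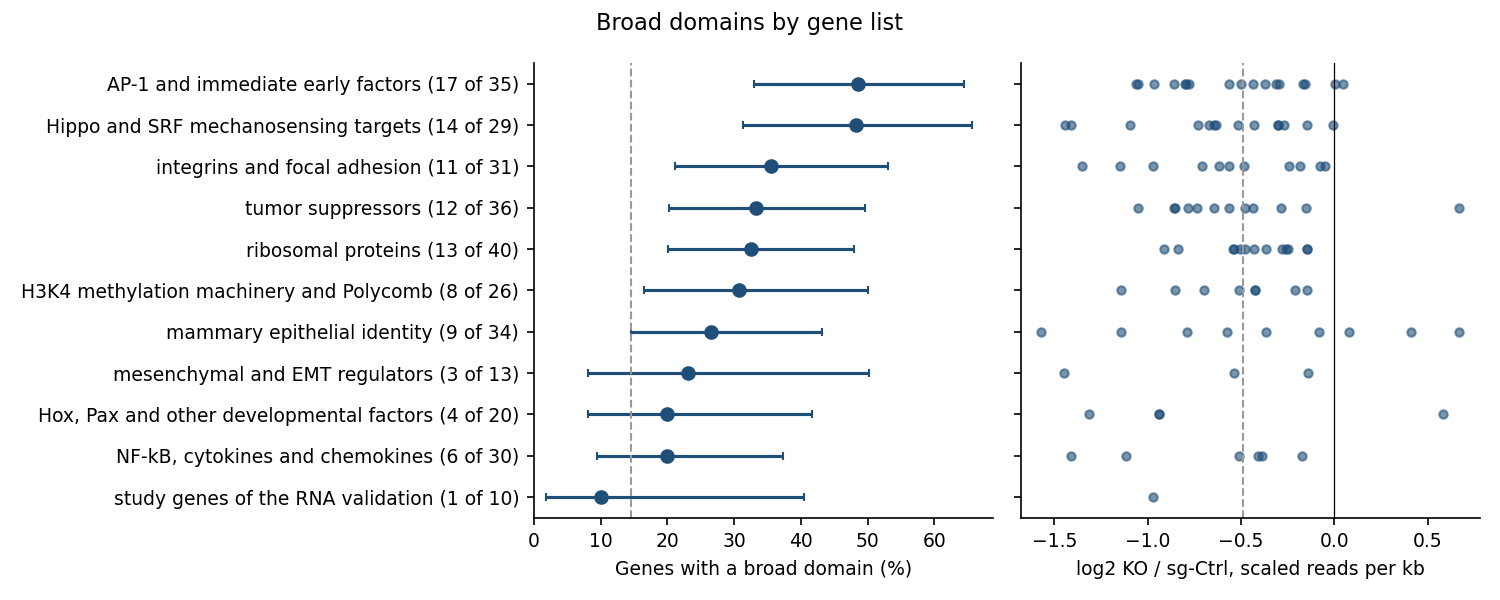
Left, share of the genes with an H3K4me3 peak that had a broad domain, by gene list (dashed line, 14.6% of all genes). The 95% Wilson intervals are over genes and do not cover variation between libraries. Right, log2 KO to sg-Ctrl ratio of scaled reads per kb of each broad member, where the points of most lists lie on both sides of the median of all peaks (dashed line, -0.49).

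In KO cells nearly every broad domain was still listed. An overlapping KO peak was found for 1243 of 1248 domains (99.6%; 99.1% to 99.8%), against 96.5% of narrower peaks and 96.9% of all peaks. A single KO peak met 1198 of them, in whole or in part, and 45 were met by 2 KO peaks (3.62%, against 0.201% of narrower peaks and 0.6% of all peaks). A wider domain can meet more KO peaks by its width alone. The 5 without a KO peak were at Mirlet7a-1 and Mirlet7f-1 (1861 reads), the G protein gene Gnai2 (620 reads), the anion transporter gene Slc26a9 (874 reads), the nuclear receptor gene Nr4a3 (2547 reads) and N4bp2l2 (513 reads). All 5 were among the 15 domains with no paired TSS inside, of which the other 10 were listed. All 1233 domains with a TSS inside had a KO peak.

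Signal over the domains was lower in KO. Scaled reads per kb in KO relative to sg-Ctrl had a median log2 ratio of -0.54 (-0.57 to -0.52), and it was -0.48 (-0.49 to -0.47) over narrower peaks and -0.49 over all peaks. The ratio was below 1 at 1160 domains (93.3%, against 87.4% of all peaks), at most 0.5 at 143 (11.5%; 9.85% to 13.4%, against 10% of all peaks) and at least 2 at 0 of 1243 (against 0.862% of all peaks). The share at or below 0.5 is close to that of all peaks. In bulk chromatin, fewer cells with the mark and less mark per cell cannot be told apart. Much of the difference depends on the scaling. When reads were scaled by the peaks shared between both lists, which moves every log2 ratio by 0.42, the median was -0.12, 63.2% of domains were below 1 (56.5% of all peaks), 17 were at most 0.5 (1.47% of all peaks) and 5 at least 2 (2.28% of all peaks). In total reads per domain the median log2 ratio was -0.60 and 16.3% of domains were at most 0.5, against 6.69% of narrower peaks and 7.8% of all peaks. At least 2 was reached by 2 domains, at Prdx2 and Skida1 (0.161%, against 2.68% of all peaks), whose KO peak also covers a neighbouring domain. The total-read median went down with width, from 0.12 under 2000 bp over -0.24, -0.43, -0.55 and -0.63 to -0.79 from 10000 bp. Total reads contain the peak length, and the classes are set by sg-Ctrl width, so part of this order is fixed by the choice: the median log2 length ratio went from 0.26 in the narrowest class to -0.11 in the widest. Broad domains held 28.1% of sg-Ctrl reads, and the 1285 KO peaks that met them held 24.5% of KO reads.

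Among the domains, those with the most signal had the lowest ratios. The domains were split into 4 groups of 310 or 311 by sg-Ctrl reads per kb. In group 1, with the fewest reads per kb, the sg-Ctrl median was 372 and the KO median 284, with a median log2 ratio of -0.31. In groups 2 and 3 the ratio was -0.47 and -0.59. In group 4 the medians were 1045 and 649, the ratio was -0.73, and 22.5% of domains were at most 0.5. The groups were set with sg-Ctrl reads, which are also the denominator of the ratio, so part of this order is fixed by the choice. Chromosomes differed as well. Median log2 ratios of the domains were lowest on chromosomes 4 (-0.82, with 21 domains or 38.2% at most 0.5), 18 (-0.77) and 5 (-0.76) and highest on X (-0.30) and chromosomes 8 (-0.32) and 7 (-0.37). All peaks of these chromosomes had similar medians, -0.73, -0.73, -0.72, -0.36, -0.34 and -0.35 in the same order.

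Length and signal did not go together at these 9 wide domains. Trps1 had 61829 reads in sg-Ctrl and 35356 in KO, or 2143 and 972 scaled reads per kb (log2 ratio -1.14), at 27200 and 27000 bp. Nfib had 23120 and 8981 reads (-1.57) at 21600 and 19600 bp. At both domains the signal per kb was less than 0.5-fold while the length was nearly kept. With the shared-peak scaling Nfib (-1.15) was still below 0.5-fold, and Trps1 (-0.72) was not. The domain at Hoxa3 to Hoxa7 had 16362 and 10824 reads (-0.94) at 26000 bp in both. Gata3 had 25256 and 22073 reads (-0.57), close to the median of all peaks, at 24200 and 24800 bp. Nrp2 (21200 bp, -0.34) and Pmepa1 (21000 bp, -0.54) had the same length in both. Tmprss11e, which encodes an epithelial serine protease, was instead shorter, 25000 and 10800 bp with 23673 and 7639 reads. So were Lrig1 (23000 and 15000 bp, 14962 and 7591 reads) and Hnrnpu with Cox20 (23600 bp, and 14000 bp in 2 KO peaks, at a ratio of -0.15). With the shared-peak scaling Nrp2 (0.08) and Hnrnpu with Cox20 (0.27) were above 1, and the others of the 9 stayed below 1.

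**Figure D3:**
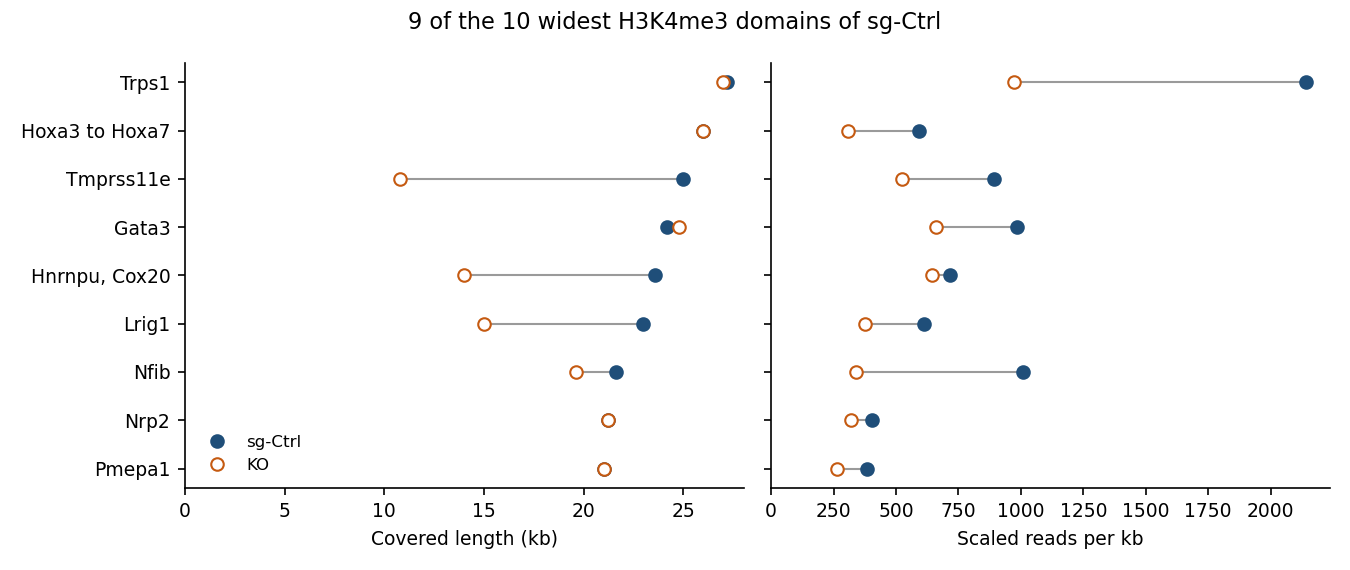
Covered length in kb (left) and scaled H3K4me3 reads per kb (right) of 9 of the 10 widest domains in sg-Ctrl (filled) and KO (open), 1 library each. Scaled by library size, reads per kb are lower in KO at all 9, but with the shared-peak scaling not at Nrp2 and Hnrnpu with Cox20. Length differs mainly at Tmprss11e, Hnrnpu with Cox20 and Lrig1.

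Over all domains, 685 were narrower in KO (55.1%, against 26.9% of all peaks), 478 wider (38.5%, against 62.6%) and 80 equal (10.4% of all peaks), with a median log2 length ratio of -0.05. Of the 1243, 961 still covered at least 6000 bp, and 15 covered at most 0.5 of their sg-Ctrl length (1.21%, against 0.759% of all peaks). Because the members were chosen for their width in sg-Ctrl, a shorter length in KO is partly fixed by the rule. Chosen the other way, the 1745 KO peaks of at least 6000 bp that were listed in sg-Ctrl were wider in KO in 72.7% of cases (median log2 0.19), and regions joined from both lists were wider in 61.4% (0.12). The KO list held more peaks of this width, 1748 of 10854 (16.1%), and its median width over all peaks was 3800 bp against 3400 bp. The lower signal per kb was found with each choice, with median log2 ratios of -0.66 for domains chosen in KO and -0.61 for joined regions. Reads per kb are divided by KO length, so the choice by KO width fixes part of the -0.66.

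The upstream and downstream ends behaved differently. In 676 domains with a single TSS and a KO peak over it, the median upstream extent was 2180 bp in sg-Ctrl and 2389 bp in KO, and the downstream extent 4951 and 4156 bp. The downstream end was shorter in KO in 66.3% of these domains (62.6% to 69.7%) and the upstream end in 26.3% (23.2% to 29.8%). For narrower peaks the shares were 29.1% and 15.6%. Counting the 674 of these whose KO peak met no other sg-Ctrl peak, the upstream change exceeded the downstream change in 486 (72.1%). Among 923 domains chosen in KO by the same rule, both ends were longer in KO, by a median of 600 bp upstream and 200 bp downstream, and the upstream change exceeded the downstream one in 531 (57.5%). By the median, the upstream extent was greater in KO under both choices, while the direction at the downstream end depended on the choice.

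**Figure D4:**
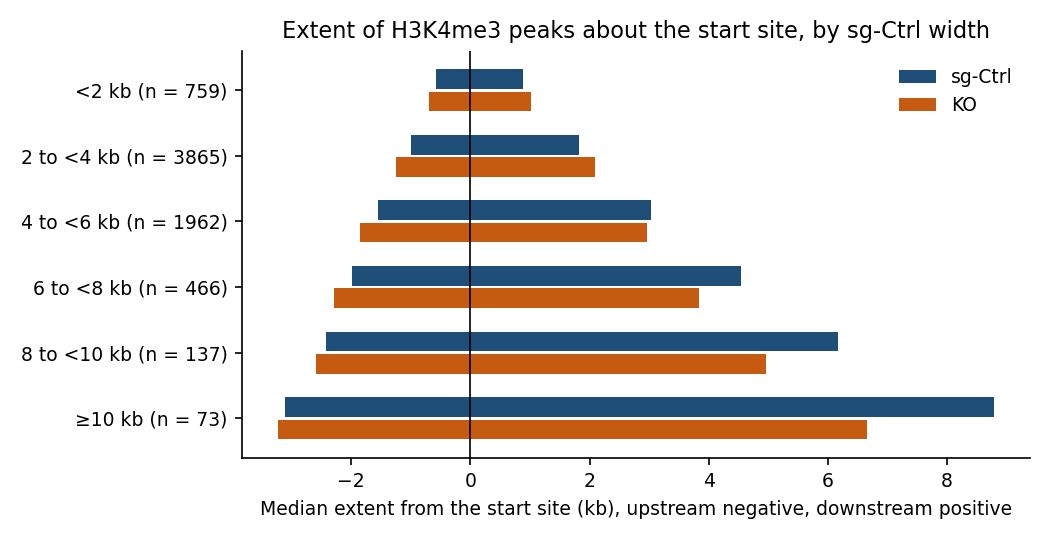
Median extent in kb of single-gene, single-TSS H3K4me3 peaks upstream (negative) and downstream (positive) of the start site in sg-Ctrl and KO, by sg-Ctrl width, with n the peaks followed. From 6 kb the KO bars are shorter downstream (3839 bp against 4544.5 bp in the class from 6000 bp), while upstream they are longer.

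The largest losses of length after Tmprss11e, Hnrnpu with Cox20 and Lrig1 were at Sema3f, a secreted semaphorin (12200 and 5600 bp), and Anxa3, an annexin (13200 and 6800 bp). The largest gains were joined peaks: the KO peak of 28200 bp at Prdx2 and Rnaseh2a (7600 bp in sg-Ctrl) also covered the Junb domain (18000 bp), the one of 24400 bp covered both Skida1 (8200 bp) and Mllt10 (14000 bp), and the one of 18000 bp both Ddx25 with Pus3 (6400 bp) and Hyls1 (6400 bp). In all, the KO peak of 32 domains (2.57%) also met another sg-Ctrl peak, and 2.55% of all peaks did so.

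The highest ratios came from domains that were shorter in KO. Cdh1, which encodes E-cadherin, had 4533 reads over 9400 bp in sg-Ctrl and 4666 reads over 4800 bp in KO, so that reads per kb were higher (455 and 721, log2 ratio 0.67) while total scaled reads were lower (-0.30). Grlf1, a GTPase-activating protein (7000 and 4200 bp, 0.71), Sema3f (0.59), Kif3c, a kinesin (8800 and 3800 bp, 0.58), and Foxf1 with Fendrr (6400 and 2400 bp, 0.58) had the same shape. Their total-read log2 ratios lay between -0.84 and -0.03. The lowest ratios were at 1500015L24Rik (1227 and 399 reads, -2.30), the deubiquitinase gene Otud1 (5944 and 1885 reads, -2.18), Gm12603 (4545 and 895 reads, -1.97), Marcks (1564 and 97 reads, -1.85) and Mir21 (16075 and 7329 reads, -1.63). Length was similar or longer in KO at 1500015L24Rik, Otud1 and Mir21, and shorter at Gm12603 (15800 and 9600 bp) and Marcks (6800 and 1200 bp).

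Of the gene lists, the mammary epithelial list had the widest range of ratios, from -1.57 to 0.67. Nfib (-1.57) and Trps1 (-1.14) were at most 0.5, Tfap2a, an AP-2 factor, had 16738 and 12002 reads (-0.79), and Id2 (0.08), Spint2 (0.41) and Cdh1 (0.67) were above 1. The list's median, at Krt8, was -0.37 (0.06 with the shared-peak scaling), against -0.49 for all peaks (-0.07). The 3 mesenchymal genes were Foxc2 (-0.14), Fn1, the fibronectin gene (-0.54), and Sox4 (3266 and 1621 reads, -1.45).

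The counts of the following lists stand beside the 11.5% of all broad domains and 10% of all peaks with a ratio of at most 0.5. Of 17 AP-1 and immediate early genes 2 were at most 0.5, Fosl2 (7238 and 4110 reads, -1.06) and Btg1 (12399 and 7275 reads, -1.05), and the median was -0.50. Junb had 8624 reads over 18000 bp in sg-Ctrl and 17212 over 28200 bp in the joined KO peak (0.00). That KO peak also covers the Prdx2 and Rnaseh2a domain, which had more scaled reads per kb in sg-Ctrl (701, against 452 at Junb). The 0.00 is therefore not a ratio of the Junb domain alone. Jund, another AP-1 subunit, was at 0.05 and Dusp4 at -0.16. Of 14 Hippo and serum response factor targets 3 were at most 0.5. They were Ankrd1, a nuclear target of YAP (8204 and 2625 reads, -1.44), Cyr61, a matricellular target (3705 and 1533 reads, -1.41), and Actb (2439 and 1565 reads, -1.09), with a list median of -0.57. Of 11 adhesion genes Itgb1 (14561 and 10789 reads, -1.35) and Tln1, which links integrins to actin (4704 and 2695 reads, -1.15), were at most 0.5. Ptk2, the gene of focal adhesion kinase, had 9355 reads over 6200 bp and 8413 over 8600 bp (-0.97). Among 12 tumor suppressors Cdkn1b was at most 0.5 (24464 and 16850 reads, -1.05), and the median was -0.61. All 6 NF-kB and cytokine domains were narrower in KO (55.1% of all broad domains and 26.9% of all peaks were, and the choice by sg-Ctrl width fixes part of this), with Csf3 (6767 and 2997 reads, -1.41) and Tnfaip3, an inhibitor of NF-kB (13740 and 6950 reads, -1.12), at most 0.5. None of 13 ribosomal protein domains were at most 0.5 (median -0.43, range -0.91 to -0.14). Of 8 H3K4 methylation and Polycomb genes Setd1b, an H3K4 methyltransferase, was at most 0.5 (7785 and 3880 reads, -1.15). The list medians were -0.56 for adhesion, -0.46 for NF-kB and cytokine genes, -0.47 for H3K4 methylation and Polycomb genes and -0.94 for Hox and similar genes. With the shared-peak scaling, which adds 0.42 to each of these ratios, of the list genes with a broad domain, Nfib (-1.15), Sox4 (-1.02) and Ankrd1 (-1.02) were at most 0.5. Under that scaling Dusp4 was above 1 (0.26), and Cdh1 (1.09) and Foxf1 (1.00) were at least 2.

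Nup210 itself had a narrow promoter peak and was no member (2600 bp with 885 reads in sg-Ctrl, 2800 bp with 913 reads in KO, log2 ratio -0.41). A promoter peak does not check a knockout made by a guide at exon 5. The other study genes described here beside Ptk2 had narrower peaks of 1000 to 4000 bp with 77 to 2435 reads in sg-Ctrl. Of these, the chemokine genes Ccl2 and Cxcl3, the matrix gene Postn and the integrin gene Itga7 had no KO peak, and the log2 ratios were -1.38 at Cxcl1, -1.87 at Itgb2 and -1.90 at Il1a. Ptk2, the broad one, had a higher ratio than each of these, and a lower one than Nup210.

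Listed H3K27me3 peaks rarely met broad domains. The H3K27me3 lists hold peaks paired with gene bodies, so a peak that touches no gene body is not counted here. In sg-Ctrl 19 domains did so (1.52%; 0.977% to 2.37%), against 3.4% of narrower peaks and 3.19% of all peaks, and in KO 11 (0.881%; 0.493% to 1.57%), against 2.33% and 2.17%. By width class the sg-Ctrl share went from 8.61% under 2000 bp to 1.49% in the class from 4000 bp and 1.34% in the class from 6000 bp, and was 1.53% from 8000 bp and 2.42% from 10000 bp. With the TSS itself inside the H3K27me3 peak the counts were 10 in sg-Ctrl and 6 in KO (2.45% and 1.79% of all peaks), and with H3K27me3 peaks of an FDR of at most 0.01 they were 16 and 9 (3.09% and 2.1% of all peaks). A total of 10 domains were met in both lists, 9 in sg-Ctrl alone and 1 in KO alone (Col4a5 and Col4a6). Over all 11018 peaks fewer were met in KO as well, 239 against 351 in sg-Ctrl. The same split over all peaks is not given here, so it is not read as a trait of these domains. Bcl11a, a zinc finger repressor, had its whole 10400 bp within H3K27me3 in both conditions (fold over IgG 5.59 in sg-Ctrl and 3.22 in KO). It had 3004 and 2826 H3K4me3 reads, or 272 and 218 scaled reads per kb (log2 ratio -0.32). Rnf43, a negative regulator of Wnt receptors, was also fully covered in both (2.63 and 2.41). Ccnd2, a D-type cyclin gene, was fully covered in sg-Ctrl (8.25) and not met in KO. Its H3K4me3 was equal in length (7000 bp), with 1527 and 2000 raw reads. In scaled reads per kb these were 206 and 212 (log2 ratio 0.04), so the signal was nearly equal. Esrp1, an epithelial splicing regulator, was covered over 7800 of 8000 bp in sg-Ctrl (2.93) and not in KO. Marcks, whose protein binds actin and the membrane, was covered over 6800 bp in sg-Ctrl (2.48) and 5800 bp in KO (3.69), and there H3K4me3 went from 6800 to 1200 bp. The peaks over Eif4enif1 with Sfi1 and over Pisd-ps3 had H3K27me3 folds of 0.217 and 0.158 in sg-Ctrl, below IgG, and both loci carried the many IgG reads given above.

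Listed NUP210 and NPC peaks met broad domains more often than narrower ones. These lists too hold only peaks paired with gene bodies. Broad domains reach further into the gene, and how far this limit enters the difference was not tested. A NUP210 peak overlapped 469 domains (37.6%; 34.9% to 40.3%), against 12.4% of narrower peaks and 15.3% of all peaks, and an NPC peak 454 (36.4%; 33.8% to 39.1%), against 11.9% and 14.7%. A wider peak meets more by its width alone. By the TSS position, which depends less on width although broad domains also hold more TSS, the shares were 21.2% and 20.4%, against 8.19% and 8.41% of narrower peaks and 9.66% and 9.77% of all peaks. Peaks of an FDR of at most 0.01 gave 22.3% and 11.9% (8.62% and 5.07% of all peaks). Both lists met the same 370 domains (29.6%, against 10.4% of all peaks), which were 78.9% of those with NUP210 and 81.5% of those with NPC. At the domains met, enrichment was slight: the median fold over IgG was 1.12 for NUP210 and 1.06 for NPC, and a fold of at least 2 was reached at 7 domains for NUP210 and 0 for NPC (0.154% and 0.0182% of all peaks). The first quartile was 1.03 for NUP210 and 0.987 for NPC, and the lowest folds were 0.620 and 0.797. Some of the domains counted as met thus held only peaks below IgG.

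**Figure D5:**
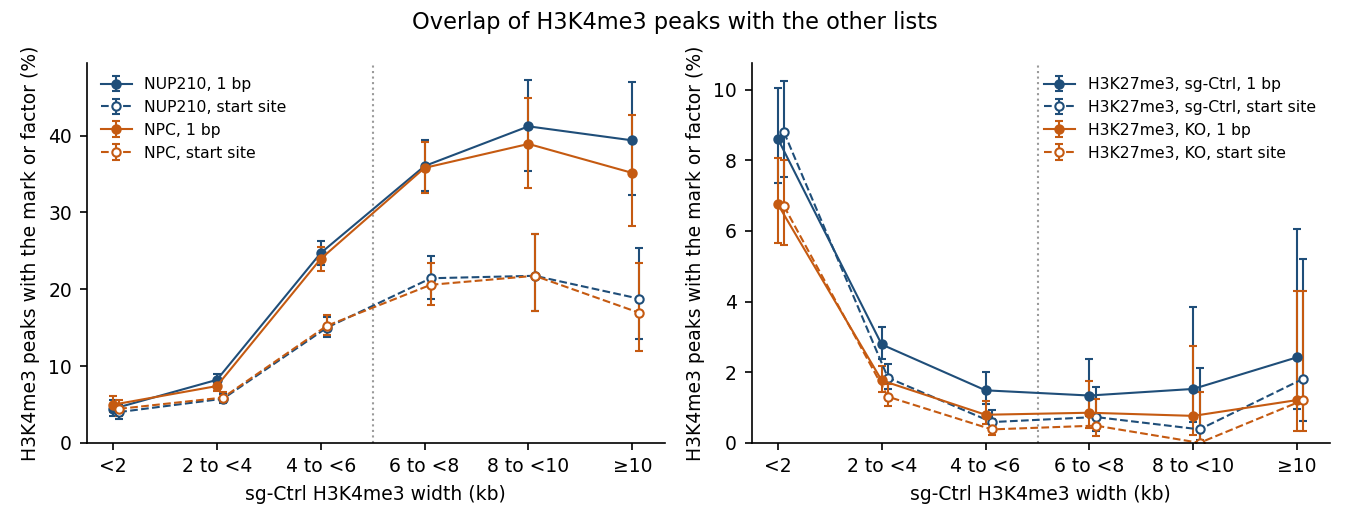
Share of H3K4me3 peaks met by NUP210 or NPC peaks (left) and by H3K27me3 peaks (right), by sg-Ctrl H3K4me3 width, for an overlap of 1 bp (filled) and for the TSS position (open). The 95% Wilson intervals are over peaks and do not cover variation between libraries. The pore protein shares are higher and the H3K27me3 shares lower to the right of 6 kb than under 4 kb.

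The domains met by NUP210 had lower KO ratios. All listed NUP210 and NPC peaks were counted here, whatever their fold or FDR. The median log2 ratio was -0.62 (-0.67 to -0.60) in 468 domains with a NUP210 peak and -0.50 (-0.52 to -0.47) in 775 without, and 16.0% (13% to 19.6%) and 8.77% (6.98% to 11%) were at most 0.5. NPC gave similar values (-0.62 and -0.50). With the median of each chromosome taken off, NUP210 domains were at -0.12 and others at 0.00. Narrower peaks showed the same order (-0.64 and -0.46). The domains with NUP210 also had more H3K4me3 in sg-Ctrl (773 and 569 scaled reads per kb). Within groups 1 to 4 of that signal the ratios with and without NUP210 were -0.31 and -0.31, -0.43 and -0.48, -0.62 and -0.57, and -0.80 and -0.68, so the values with NUP210 were lower in groups 3 and 4 and not in groups 1 and 2.

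MicroRNA genes were paired with 37 domains (2.96%; 2.16% to 4.06%), against 1.18% of narrower peaks and 1.38% of all peaks. Here too a wider peak touches more TSS windows, so the choice by width fixes part of the difference. Of the 49 microRNA genes on these domains 45 had a mature sequence in RefSeq. Over the 36 domains with a KO peak the median log2 ratio was -0.56, with 35 below 1 and 6 at most 0.5. These values stand beside a median of -0.54 over all broad domains, of which 93.3% were below 1 (87.4% of all peaks) and 11.5% at most 0.5 (10% of all peaks). A seed, bases 2 to 8 of the mature microRNA that pair with targets, was shared by more than 1 domain in 2 cases, and these families are shown with the seed in capitals (5′ to 3′). The first is let-7, a repressor of growth genes in differentiated cells, on 4 domains.
mmu-let-7a-5p: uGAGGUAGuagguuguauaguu
mmu-let-7f-5p: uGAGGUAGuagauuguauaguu
mmu-let-7e-5p: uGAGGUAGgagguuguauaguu
mmu-let-7g-5p: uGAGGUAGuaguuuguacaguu
mmu-let-7i-5p: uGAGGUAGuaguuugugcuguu
The second is miR-125, on 2 domains.
mmu-miR-125a-5p: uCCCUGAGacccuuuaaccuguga
mmu-miR-125b-5p: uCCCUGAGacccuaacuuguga
The let-7a and let-7f domain had no KO peak listed. The let-7e domain, which also holds miR-125a, spanned 17800 bp with 6451 reads in sg-Ctrl and 16600 bp with 5204 reads in KO (-0.55). The let-7i domain had 8369 and 6125 reads (-0.84) and the let-7g domain 4788 and 3709 reads over 6400 and 4600 bp (-0.24). The miR-125b domain had 32993 and 26264 reads at 13200 and 19200 bp (-1.21). The mature sequences of let-7e, let-7i, miR-125a and miR-125b lie inside their domains, and those of let-7a, let-7f and let-7g lie beside them. Domains of a seed family were thus not alike, as the values of miR-125a and miR-125b show. The microRNA on the domain with the lowest of these ratios, miR-21, is found at high levels in many tumors.
mmu-miR-21a-5p: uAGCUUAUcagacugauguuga
This sequence lies at chr11:86584120-86584141 on the minus strand, within a domain (chr11:86576601-86595800) that was 19200 bp in sg-Ctrl and 21400 bp in KO. Its scaled reads per kb were 789 in sg-Ctrl and 254 in KO.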

How the data were processed

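Chromatin immunoprecipitation sequencing of sg-Ctrl and KO-N13 4T1 cells (6 peak lists, 1 library each) was analysed, and 3 IgG libraries served as controls. The authors aligned reads and called islands with SICER against IgG (window 200 bp for H3K4me3 and 1000 bp for other targets), then paired H3K4me3 islands with 4 kb on either side of each TSS and the others with gene bodies. Per the labels Bowtie2 was among the tools. The labels name more than 1 mouse build. Gene positions in the lists fit GRCm38, since 89.7% of 9790 matched symbols (78.6% of 12453) had their TSS within 50 bp of RefSeq. The deposited lists give raw ChIP and IgG read counts, the authors' p-value and FDR, and the authors' fold ratio over IgG. These p-values compare ChIP with IgG, not KO with sg-Ctrl.

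Peaks were made distinct and overlapped by at least 1 bp, all KO peaks over a domain were summed, and reads were divided by library size relative to IgG, derived from the counts and fold, and by kb. Members and gene lists were chosen with earlier results of these data known. Named were the 10 widest domains, the 5 with most reads per kb, the 5 lowest and 5 highest ratios (at least 100 reads), the 3 on either side of the threshold, those absent in KO, the 5 largest gains and losses of length, the 5 with most H3K27me3 up to 5 of the widest genes of each list, Nup210 and the study genes. Some of these genes are not reported here. Other list members, microRNA domains, and further H3K27me3 examples were chosen after their values were seen. Scripts ran in Python 3.11.15 with pandas 2.3.3 and scipy 1.17.1, figures with matplotlib 3.10.9, and the comparison was tested on simulated lists. The 4 RNA sequencing samples were not analysed here. Alternatives tried were other widths, scalings, overlaps, FDR limits and the choice of members in KO.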

Additional observations from a re-analysis of the deposited data

How the results depend on the processing

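Of 74 alternative values, 39 stayed within the interval of the reported one, 34 moved beyond it and 1 turned its direction. The direction of the lower KO signal per kb was kept under every alternative that gave a median ratio. Scaling by shared peaks gave a median of -0.12, with 1.37% of domains at most 0.5-fold and 0.402% at least 2-fold. Total scaled reads gave -0.60 and 16.3%, as did reads over the joined region (-0.60 and 16.3%), an alternative chosen after seeing the data. Choosing members in KO gave -0.66 and 16.5% at most 0.5-fold, and turned the length ratio to 0.19, with 22.8% narrower and 72.7% wider. The choice by KO width fixes part of these values. A width of at least 5000 bp (2310 domains) gave a length ratio of 0, 47.7% narrower and 45.3% wider, NUP210 overlap of 34.0%, NPC overlap of 32.9%, and broad shares of 50% for mammary and 75.9% for Hippo and serum response factor genes, against 25.8% of all genes at that width. A width of at least 8000 bp (427 domains) gave 100% listed in KO, 15.2% at most 0.5-fold, a median log2 length ratio of -0.074, 61.1% narrower and 34.0% wider, NUP210 overlap of 40.5%, and broad shares of 31.4% for AP-1 and 13.8% for Hippo genes, against 5.47% of all genes. An overlap of at least 50% gave 98.3% listed. Domains with a single gene had 70.3% downstream, against 60.5% over all pairs. By the TSS position H3K27me3 overlap was 0.801% in sg-Ctrl and 0.481% in KO, NUP210 overlap 21.2% and NPC overlap 20.4%, and other peaks of an FDR of at most 0.01 gave 22.3% for NUP210 and 11.9% for NPC. Also chosen after seeing the data were leaving out KO peaks that meet another sg-Ctrl peak and the regions joined from both lists. The cause of these differences was not tested. The comparison of promoter CpG content could not be made, for want of matched promoters. No paired analysis was possible because each ChIP condition had 1 library and no test was made. KO and sg-Ctrl differ in clone as well as in Nup210, and these cannot be told apart.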

Other observations

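The KO list also held peaks that were broad in KO alone. Of the 1745 KO peaks of at least 6000 bp with an sg-Ctrl peak, 759 covered under 6000 bp in sg-Ctrl, with a median of 5000 bp in sg-Ctrl and 6600 bp in KO and a median log2 ratio of reads per kb of -0.74. The KO reads are divided by KO length, so this choice by length fixes part of that lower ratio. In 55 of the 759 the KO width was at least double. Chek1, a DNA damage checkpoint kinase gene, was 4200 bp wide with 4408 reads in sg-Ctrl and 12400 bp with 5336 reads in KO (log2 ratio -1.63). Trappc9, a vesicle transport gene, was 3200 bp with 2898 reads and 10800 bp with 5360 reads (-1.21), and AI597479 with Tgfbrap1 4000 bp with 5139 reads and 11600 bp with 7653 reads (-1.31). In these 3 the reads were spread over more length at a lower density. Mir101c (chr9:3015201-3038400) had a higher density as well, with 435 reads over 2600 bp in 2 sg-Ctrl peaks and 12743 reads over 23200 bp in KO (1.37). So did the olfactory receptor gene Olfr460 (119 and 2591 reads, 1400 and 8000 bp, 1.58). IgG reads at both loci are not given here, and a high background as at Pisd-ps3 was not checked. These values are therefore not read as a gain of the mark. A further 3 broad KO peaks met no sg-Ctrl peak.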
